A study of Mus musculus with 28 samples.

Results

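The genes described are the 50 proteasome genes with a probe on the array, of 19232 gene symbols with a probe in all. They were chosen by name alone: the accession that the scanner files give for each probe was turned into a RefSeq mouse symbol, and symbols beginning with Psma, Psmb, Psmc, Psmd, Psme, Psmf or Psmg were taken. The RefSeq table held 57 such symbols, 6 of them pseudogenes, and Psme2b and the pseudogenes had no probe. The 50 genes were read by 71 probes, of which 70 passed the filter described next, and every gene kept at least 1. Of the 50, 43 encode the constitutive subunits of the particle and its cofactors: 14 subunits of the core, 17 of the regulatory cap, 5 activators and inhibitors, and 7 assembly chaperones. The 3 inducible subunits of the immunoproteasome, Psmb8, Psmb9 and Psmb10, are treated apart. The name rule also took in Psma8 and Psmb11, core subunits known from testis and thymus, and Psmc3ip and Psme3ip1, which share the prefix but are not subunits.

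Every one of the 28 livers came from a mouse that lacks Fah, fumarylacetoacetate hydrolase, which completes the breakdown of tyrosine, and there was no wild-type group. Nitisinone (NTBC) blocks an earlier enzyme of that pathway and so keeps toxic tyrosine products from forming in such mice. There were 7 groups of 4 arrays. Fah-/- mice and Fah-/- p53-/- mice were sampled on full NTBC (7.5 mg/L in the drinking water), on reduced NTBC and on no NTBC, and Fah-/- p21-/- mice on no NTBC only. For the reduced dose the labels conflict, since the sample labels give 25% of the full dose and the treatment protocol gives 2.5% for 3 months, so it is called reduced here. Neither the age of the mice nor the time without NTBC is in the labels. Whether the 4 arrays of each group stand for 4 mice is not stated either, so p-values measure the spread between these samples.

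The proteasome is the barrel-shaped protease that breaks down proteins tagged with ubiquitin. Its core, the 20S particle, is built of outer rings of alpha subunits, which gate the entry, and inner rings of beta subunits, of which Psmb5, Psmb6 and Psmb7 carry the cutting sites. A 19S cap recognises ubiquitin, unfolds the substrate with a ring of ATPases (the Psmc subunits) and passes it to the core, while other Psmd subunits bind or remove ubiquitin. Interferon gamma replaces the cutting subunits with Psmb8, Psmb9 and Psmb10, which favours peptides for display on class I MHC, and the Psme1 and Psme2 ring opens the core without ATP. In stressed cells the transcription factors Nfe2l1 and Nfe2l2 are known to raise proteasome genes through antioxidant response elements in their promoters.

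Promoter sequences are shown for cutting subunits, because these form the pairs that replace one another and moved in different ways in the arrays. Those shown are Psmb5 with Psmb8 and Psmb6 with Psmb9. The pair of Psmb7 and Psmb10 is left out, and no motif searched below matched in the Psmb10 window. RefSeq's table for the GRCm38.p6 build held 300 bases, from 250 before to 50 after a start, for 42 of the 50 genes. The first pair of sequences belongs to constitutive cutting subunits, with the match to the antioxidant response element TGACNNNGC in capitals. Psmb5 is the constitutive partner of Psmb8 (chr14:54617946-54618245, minus strand), and Psmb6 that of Psmb9 (chr11:70525107-70525406, plus strand).
Psmb5: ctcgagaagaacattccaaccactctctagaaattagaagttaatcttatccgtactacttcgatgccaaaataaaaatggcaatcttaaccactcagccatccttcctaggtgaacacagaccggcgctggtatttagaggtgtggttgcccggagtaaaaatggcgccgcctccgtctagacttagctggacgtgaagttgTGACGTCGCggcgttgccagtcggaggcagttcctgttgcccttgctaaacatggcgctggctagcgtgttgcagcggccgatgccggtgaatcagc
Psmb6: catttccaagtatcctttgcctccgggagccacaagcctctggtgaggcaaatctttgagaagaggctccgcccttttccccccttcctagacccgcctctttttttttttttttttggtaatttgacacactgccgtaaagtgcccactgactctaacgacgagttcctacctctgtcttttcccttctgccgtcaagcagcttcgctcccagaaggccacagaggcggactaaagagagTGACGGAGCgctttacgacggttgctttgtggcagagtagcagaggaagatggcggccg
The next pair belongs to inducible subunits, which lie in the MHC region. Psmb8 (chr17:34197945-34198244, plus strand) is shown with its match to the gamma activation site TTCNNNGAA in capitals. Psmb9 (chr17:34187281-34187580, minus strand) is shown with the 225 bases between its start and that of Tap1 in capitals. Tap1 encodes a subunit of the peptide transporter of class I display, and the promoter windows of both genes share 275 bases.
Psmb8: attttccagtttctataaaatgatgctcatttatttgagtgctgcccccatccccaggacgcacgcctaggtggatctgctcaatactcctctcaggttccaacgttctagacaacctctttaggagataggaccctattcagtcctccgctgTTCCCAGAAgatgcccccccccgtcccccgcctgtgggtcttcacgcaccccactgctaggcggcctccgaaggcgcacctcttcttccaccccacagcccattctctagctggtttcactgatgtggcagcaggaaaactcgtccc
Psmb9: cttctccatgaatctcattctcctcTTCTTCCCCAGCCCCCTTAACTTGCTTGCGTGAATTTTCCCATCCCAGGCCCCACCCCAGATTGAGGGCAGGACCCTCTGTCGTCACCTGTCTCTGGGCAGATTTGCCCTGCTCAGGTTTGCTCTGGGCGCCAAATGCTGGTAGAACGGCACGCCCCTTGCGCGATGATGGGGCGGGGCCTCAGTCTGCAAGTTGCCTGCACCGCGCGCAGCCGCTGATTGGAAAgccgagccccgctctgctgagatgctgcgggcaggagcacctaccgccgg
Both strands were searched for each motif. The antioxidant response element TGACNNNGC matched in 16.7% of the 36 constitutive genes with a promoter, in 0 of the 3 inducible ones and in 14% of all 27025 genes in the table. An interferon-stimulated response element, GAAANNGAA, matched in 19.4%, 0% and 9.76% of the same sets, and the gamma activation site in 5.56%, 33.3% and 9.55%. CCAAT, a common promoter box that was searched as a reference, matched in 33.3%, 33.3% and 41.1%. TTCNNNGAA and GAAANNGAA can overlap, and a match describes letters in this window only.

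Each level given is a log2 of the processed signal of a probe minus the log2 of its array's 75th percentile, so levels of different genes are not comparable. A difference of 1 on this scale is a 2-fold change. Before scaling, that percentile lay between 252 and 578, and 54.8% to 68.5% of probes were well above background. The 9 hepatocyte markers were well above background on all 28 arrays, as were 48 of the 50 proteasome genes. The full-dose arrays were scanned in 1 run, the reduced-dose arrays in another and the arrays without NTBC in the other 2 of the 4 runs, so dose and scan run cannot be told apart. Signals of Xist and Ddx3y marked all 4 Fah-/- p53-/- arrays without NTBC and replicates 1 and 2 of Fah-/- p21-/- as female and the others as male, so sex cannot be told apart from p53 loss at no NTBC. Nor can it be told apart from dose wherever Fah-/- p53-/- mice without NTBC are set against those on full or reduced NTBC, or from the genotype difference in that response. The arrays farthest from their groups were replicate 1 of Fah-/- p53-/- without NTBC and replicates 1 and 2 of Fah-/- p21-/-. Probes for Fah, Trp53 and Cdkn1a were well above background on every array, the knockouts included. Which exons were deleted is not in the labels, so these probes do not check the labels. In whole liver, fewer cells of a type and less RNA per cell cannot be told apart.

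How the 43 constitutive genes stood against full dose depended on how the arrays were scaled. One model was fitted with limma to all 20302 features, 1 probe a gene, and a gene is called where its p-value, adjusted over all features, was under 0.05. Beside the 75th percentile scaling, 3 other ways to make the levels are given. Normexp models and removes background before scaling, and quantile normalization gives every array the same distribution. The last is the value table the authors deposited, which holds normalized log2 intensities. In Fah-/- mice on reduced NTBC, 1 gene was called higher and 22 lower than at full dose, beside 17.4% and 22.3% of all features. The median difference was -0.29 over the 43 genes and -0.03 over all features. Under normexp 0 were called higher (2 at an unadjusted p under 0.05) and 1 lower, under quantile normalization 5 and 11, and with the deposited values 6 and 9. Reduced NTBC in Fah-/- p53-/- mice gave 4 of the 43 called higher and 14 lower, beside 20.4% and 19.4%, but the split turned to 17 and 1 under normexp, 10 and 4 under quantile normalization and 11 and 5 in the deposited table. Of all features, the other scalings in this order called 1995, 7760 and 7343 in Fah-/- mice, 39%, 50.8% and 49.1% of them higher. In Fah-/- p53-/- mice they called 10649, 7429 and 6976, with 24.6%, 56.5% and 52.9% of them higher. Thus no direction of the family at the reduced dose held in both genotypes under every scaling.

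Without NTBC, as against full dose, 9 of the 43 genes were called higher and 12 lower in Fah-/- mice, beside 29.3% and 41.5% of all features, and the split was 8 and 2 under normexp and 32 and 2 under both quantile normalization and the deposited table. The counts in Fah-/- p53-/- mice were 22 higher and 10 lower, beside 29.6% and 40%, and the other scalings gave 26 and 1 (normexp) and 35 and 2 (both others). The median of the 43 minus the median of all features was above 0 under the main and the other 3 scalings in both genotypes, between 0.16 and 0.57 in Fah-/- and between 0.38 and 0.96 in Fah-/- p53-/- mice. All 9 genes called higher in Fah-/- mice were also called higher in Fah-/- p53-/- mice, where they made up 40.9% of the calls: Psma3, Psma5, Psmb5, Psmc6, Psmd14, Psmd5, Psmd8, Psmf1 and Psmg4. Of the genes called lower, 7 were shared, 58.3% of the Fah-/- and 70% of the Fah-/- p53-/- calls. Of all features, normexp, quantile normalization and the deposited table called 10461, 14124 and 13405 in Fah-/- mice, 31%, 50.3% and 50.2% of them higher. In Fah-/- p53-/- mice they called 10679, 14053 and 13506, with 32.3%, 50.7% and 51.7% of them higher.

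On the main scaling, the comparison of no NTBC with reduced NTBC gave the clearest split. In Fah-/- mice 24 of the 43 genes were called higher and 4 lower, beside 26.1% and 38.1% of all features (16 higher without replicate 3 on no NTBC), and in Fah-/- p53-/- mice 28 and 3, beside 23.1% and 38.1%. The direction of the split was the same under the 3 other scalings, with 13 and 1, 34 and 2 and 34 and 2 in Fah-/- mice, and 8 and 2, 32 and 2 and 32 and 3 in Fah-/- p53-/- mice. The median difference was 0.26 and 0.34, against -0.15 and -0.16 over all features. Under the main and other 3 scalings, the median of the 43 minus that of all features was 0.40 to 0.56 in Fah-/- mice. In Fah-/- p53-/- mice it was 0.07 to 0.58, and the lowest value was under normexp (0.15 against 0.08). A shared set of 21 genes was called higher in both genotypes, 87.5% of the Fah-/- calls and 75% of the Fah-/- p53-/- calls. Of all features, normexp, quantile normalization and the deposited table called 6750, 12780 and 11977 in Fah-/- mice, 41.8%, 49.1% and 49.5% of them higher. In Fah-/- p53-/- mice they called 5694, 12290 and 11837, with 45.5%, 47% and 48.6% of them higher. The comparisons with full and with reduced NTBC share the arrays without NTBC.

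**Figure D1:**
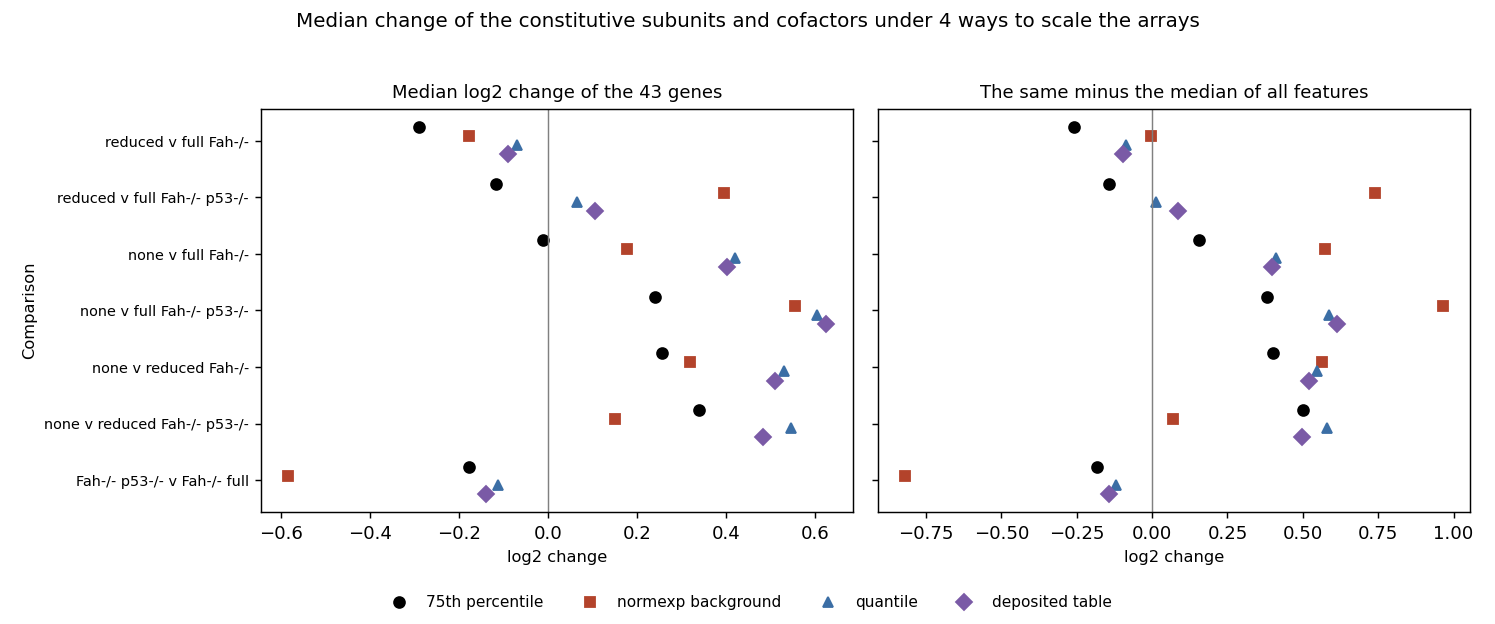
Median log2 change of the 43 constitutive proteasome genes (left) and the same minus the median of all features (right), on the horizontal axes, for 7 comparisons (rows); each marker is 1 of the 4 ways to make the levels. For no against reduced NTBC all markers lie above 0 in both panels, while for reduced against full NTBC in Fah-/- p53-/- mice they lie on both sides of 0.

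The 20S core and the 19S cap followed the same course. Of the 14 constitutive core subunits, 9 were called higher and 0 lower (0 at an unadjusted p under 0.05) without as against reduced NTBC in Fah-/- mice, and 11 and 0 (0 unadjusted) in Fah-/- p53-/- mice. Of all features, 26.1% and 23.1% were called higher in these comparisons and 38.1% lower in each. Normexp called 3 and 2 of the 14 higher, and quantile normalization and the deposited table each called 14 and 13. Of the 17 cap subunits, 12 and 14 were called higher and 0 lower (0 unadjusted) in the same comparisons, with 7 and 5 higher under normexp, 15 and 15 under quantile normalization and 15 and 14 in the deposited table. The cap also made up most of the genes called lower in Fah-/- mice at the reduced dose, with 14 of 17 lower and a median of -0.38. Of the 14 core subunits 6 were called lower there, beside 22.3% of all features. Under normexp, quantile normalization and the deposited table the lower calls among the 17 numbered 1, 6 and 4.

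**Figure D2:**
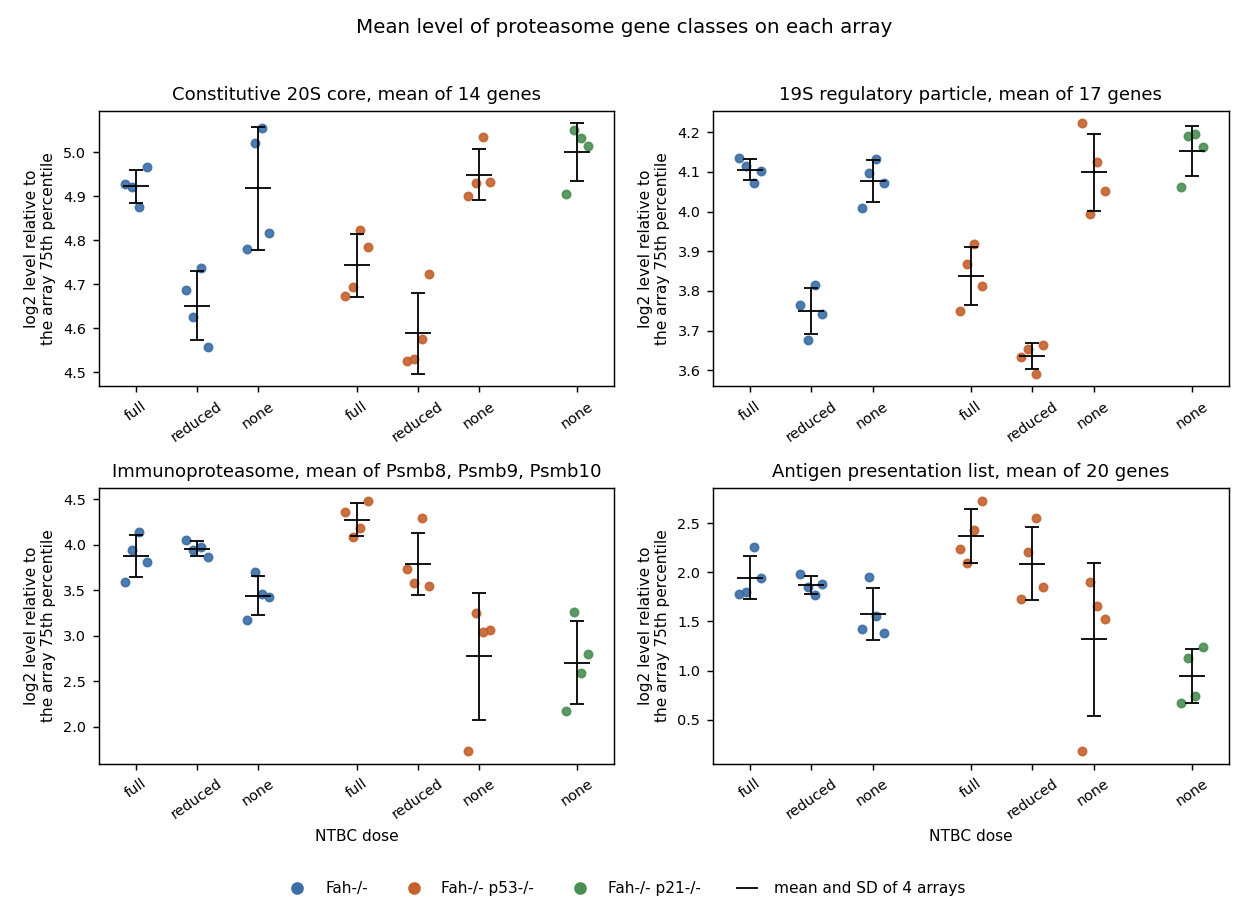
Mean log2 level of each class of proteasome genes on every array (points), by group, relative to the array's 75th percentile; horizontal bars and whiskers are the mean and SD of 4 arrays. The panels show the constitutive 20S core, the 19S cap, the immunoproteasome and the class I display list; levels are comparable within a panel only, and the immunoproteasome panel shows its lowest value on replicate 1 of the Fah-/- p53-/- arrays without NTBC.

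Among the alpha subunits, which form the gate of the core, Psma3 and Psma5 were called higher without NTBC in both genotypes. Psma3 stood at 3.66, 3.49, 3.56 and 3.64 at full dose and at 3.87, 4.08, 4.15 and 3.89 without NTBC in Fah-/- mice. The groups did not overlap, and the rise was 0.41 (SE 0.11, adjusted p = 0.00143). Psma3 also rose in Fah-/- p53-/- mice, by 0.57 (SE 0.11, adjusted p = 4.03e-05), and both calls held under every alternative. Psma5 rose by 0.31 (SE 0.13, adjusted p = 0.0323) in Fah-/- mice, where the arrays overlapped, and by 0.78 (SE 0.13, adjusted p = 6.87e-06) in Fah-/- p53-/- mice, from 4.72, 4.5, 4.76 and 4.84 to 5.43, 5.41, 5.58 and 5.51. Psma2 rose by 0.38 (SE 0.10, adjusted p = 0.00155) and Psma6 by 0.36 (SE 0.16, adjusted p = 0.0454) in Fah-/- p53-/- mice, with differences of 0.13 and 0.31 in Fah-/- mice that did not pass the test. Psma7 stood at 6.12, 6.04, 6.04 and 6.07 at full dose and 5.54, 5.72, 5.85 and 5.57 without NTBC in Fah-/- mice, groups without overlap. It was the alpha subunit called lower in both genotypes (-0.40 in Fah-/- and -0.35 in Fah-/- p53-/- mice), but quantile normalization and the deposited table turned its sign in both, and normexp turned it in Fah-/- p53-/- mice. By the probes that stand for them, Psma1 and Psma4 passed the test in no comparison with full dose. Of the 2 probes of Psma4, 1 was called lower at the reduced dose in Fah-/- mice, with a range of -0.33 to -0.18. Without NTBC in Fah-/- p53-/- mice 1 was called higher, with a range of 0.09 to 0.30.

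The constitutive cutting subunits split. Psmb5, the chymotrypsin-like subunit, stood at 5.04, 5.05, 5.08 and 4.85 on full NTBC and 5.36, 5.77, 5.69 and 5.56 without NTBC in Fah-/- p53-/- mice. All 4 arrays without NTBC lay above those at full dose, a rise of 0.59 (SE 0.11, adjusted p = 4.96e-05) that held under every alternative. Psmb5 rose by 0.28 (SE 0.11, adjusted p = 0.0296) in Fah-/- mice, with overlap between 5.13, 5.19, 4.96 and 5.03 and 5.17, 5.43, 5.49 and 5.32. Psmb6, the caspase-like subunit, stood at 6.07, 6.11, 5.88 and 6.0 at full dose and 5.30, 5.62, 5.66 and 5.47 without NTBC in Fah-/- mice, and at 5.92, 5.81, 5.79 and 5.65 and 5.54, 5.39, 5.58 and 5.47 in Fah-/- p53-/- mice. The arrays without NTBC lay below in both, at -0.50 and -0.30, but quantile normalization (0.23 and 0.41) and the deposited table (0.21 and 0.41) turned both signs, with calls on the higher side, so the direction of Psmb6 rests on the scaling. Psmb7, the trypsin-like subunit, fell most of the core at the reduced dose in Fah-/- mice, from 4.26, 4.28, 4.38 and 4.41 to 3.50, 3.43, 3.75 and 3.76. The change was -0.72 (SE 0.09, adjusted p = 2.9e-06), and -0.44 (adjusted p = 0.161) under normexp. Without NTBC it stood between, at 3.92, 4.13, 4.19 and 4.15, higher than at the reduced dose by 0.48.

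The other beta subunits are structural. Psmb2 stood at 1.73, 1.75, 1.73 and 1.76 at full dose and 1.11, 1.09, 1.45 and 1.34 at the reduced dose in Fah-/- mice. It fell by 0.49 there and rose by 0.48 (SE 0.11, adjusted p = 0.000524) from there to no NTBC, a rise that held under every alternative. Its difference at the reduced dose was 0.14 in Fah-/- p53-/- mice, and the responses of the genotypes differed by 0.63 (SE 0.15, adjusted p = 0.0112). Psmb3 and Psmb4 were lower at the reduced dose in Fah-/- mice (-0.45 and -0.33), and the arrays of Psmb4 were at 6.89, 6.98, 6.82 and 6.87 and 6.61, 6.60, 6.58 and 6.43. Both turned sign in Fah-/- p53-/- mice under normexp. Psmb1 rose by 0.29 (SE 0.10, adjusted p = 0.0137) without NTBC in Fah-/- p53-/- mice, where the 4 arrays of the groups overlapped.

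**Figure D3:**
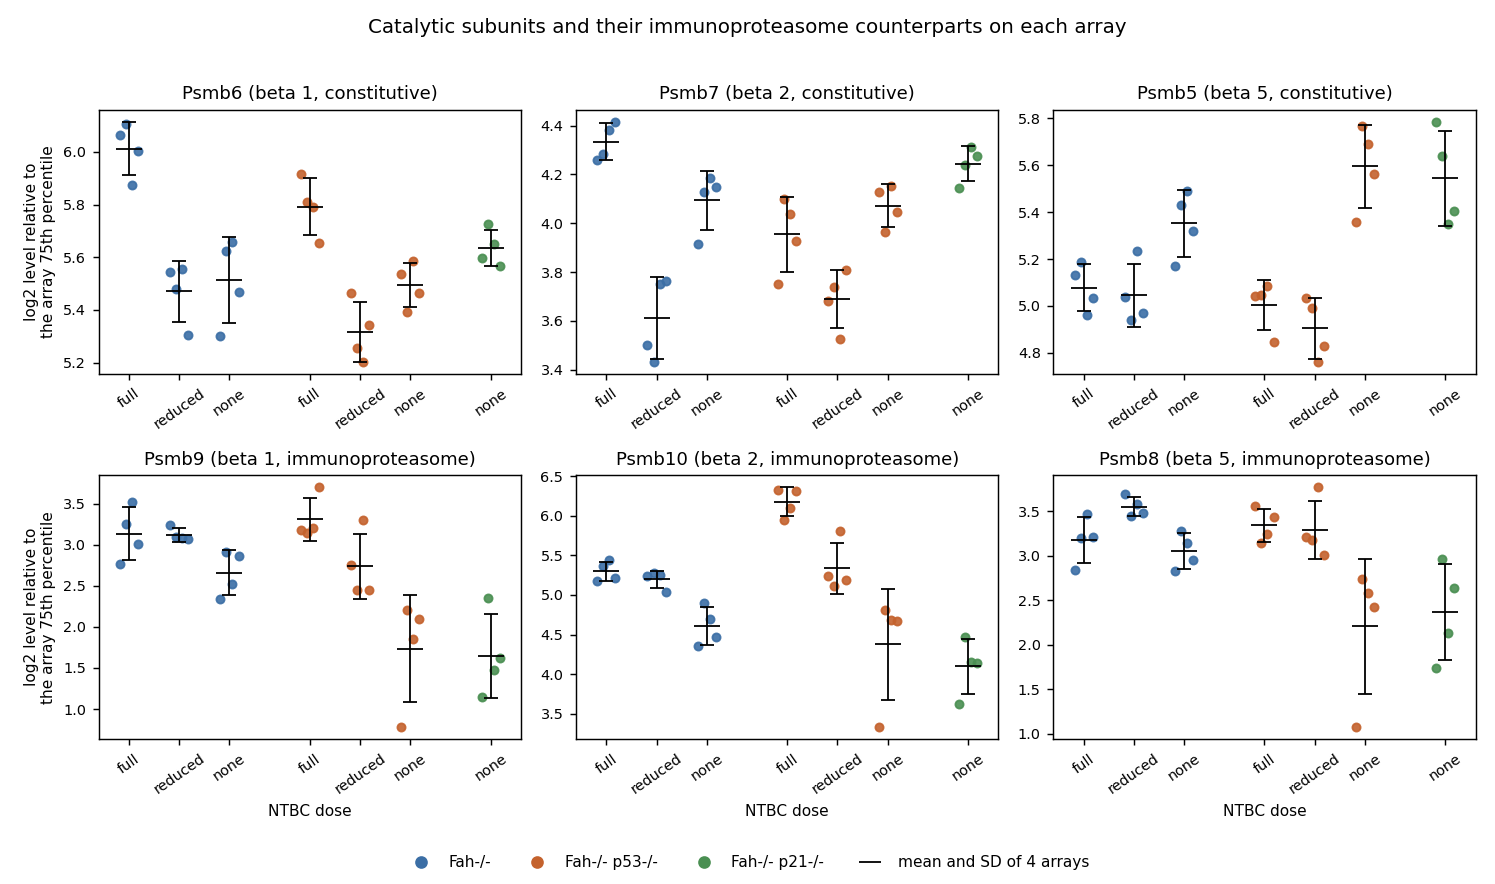
Log2 level relative to the array's 75th percentile on each array (points) of the 3 constitutive cutting subunits (top) and the inducible subunits that replace them (bottom), by group, with the mean and SD of 4 arrays. Levels may be compared between groups within a panel; without NTBC the 3 inducible subunits lie lowest in Fah-/- p53-/- and Fah-/- p21-/- mice, and Psmb5 lies higher than at full dose, with overlap in Fah-/- mice.

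All 3 immunoproteasome subunits were called lower without NTBC in Fah-/- p53-/- mice, and of the 3 only Psmb10 in Fah-/- mice. Psmb10, the inducible counterpart of Psmb7, stood at 6.33, 5.95, 6.10 and 6.32 at full dose, at 5.24, 5.11, 5.81 and 5.18 at the reduced dose and at 3.33, 4.82, 4.69 and 4.67 without NTBC in Fah-/- p53-/- mice. The 3 groups did not overlap, and the change from full dose to no NTBC was -1.80 (SE 0.24, adjusted p = 4.03e-07). Psmb8, the counterpart of Psmb5, stood at 3.56, 3.15, 3.24 and 3.43 at full dose and at 1.08, 2.73, 2.58 and 2.43 without NTBC, a change of -1.14 (SE 0.28, adjusted p = 0.000797). Psmb9, the counterpart of Psmb6, went from 3.18, 3.15, 3.21 and 3.70 to 0.78, 2.21, 1.86 and 2.09, a change of -1.58 (SE 0.27, adjusted p = 1.73e-05). All 3 were also called lower without than with reduced NTBC, at -0.96 for Psmb10, -1.09 for Psmb8 and -1.0 for Psmb9. These 6 calls held under every alternative and with each array left out. All 6 set female arrays without NTBC against male arrays, and no alternative separates sex from dose there.

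The values without NTBC in Fah-/- p53-/- mice include replicate 1, which had the lowest value of each of the 3 genes. Without that array and the 2 other far arrays the changes from full dose were -1.45 for Psmb10, -0.76 for Psmb8 and -1.26 for Psmb9, with adjusted p-values of 2.82e-08, 0.000584 and 1.18e-05. The same comparison in Fah-/- mice gave -0.70 for Psmb10, which was called, and -0.13 and -0.48 for Psmb8 and Psmb9, which were not. Psmb10 stood at 5.17, 5.36, 5.44 and 5.22 at full dose and 4.35, 4.89, 4.69 and 4.47 without NTBC there, without overlap, but the call was lost under normexp (-0.54), quantile normalization (-0.11) and the deposited table (-0.14). The difference between genotypes in this response was called for Psmb10, at -1.10 (SE 0.33, adjusted p = 0.0391), and gave -1.01 and -1.10 for the others, which did not pass.

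Set against Fah-/- mice without NTBC, the double knockouts of p53 were called lower for Psmb8 and Psmb9, and those of p21 for Psmb9. Psmb9 stood at 2.34, 2.91, 2.52 and 2.86 in Fah-/- mice, at 0.78, 2.21, 1.86 and 2.09 in Fah-/- p53-/- mice, a difference of -0.92 (SE 0.27, adjusted p = 0.0249), and at 1.14, 2.35, 1.47 and 1.62 in Fah-/- p21-/- mice, a difference of -1.01 (SE 0.27, adjusted p = 0.0241). The Fah-/- and Fah-/- p53-/- groups did not overlap, and replicate 2 of Fah-/- p21-/- reached into the Fah-/- range. Psmb8 fell by 0.85 in Fah-/- p53-/- mice, and its difference of -0.68 in Fah-/- p21-/- mice did not pass. With slide as a fixed block over these 12 arrays the adjusted p-values were 0.43 for Psmb8 and 0.298 for Psmb9 in Fah-/- p53-/- mice, and 0.409 for Psmb9 in Fah-/- p21-/- mice. On the male arrays alone the Fah-/- p21-/- difference of Psmb9 was -1.11 (adjusted p = 0.0088). That fit leaves replicates 3 and 4 of Fah-/- p21-/-, which lay on the same slide. The full-dose level of Psmb10 was higher with p53 missing, by 0.88 (SE 0.24, adjusted p = 0.0146), and by 0.36 under normexp, where the call was lost (adjusted p = 0.299).

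Genes of class I display and interferon gamma, and markers of other cell types, were counted beside the inducible subunits. Of 20 display and interferon genes tested, 0 were called higher (0 at an unadjusted p under 0.05) and 14 lower without as against full NTBC in Fah-/- p53-/- mice, with a median of -0.91, against 40% of all features called lower and their median of -0.14. The counts in Fah-/- mice were 1 higher and 7 lower, with a median of -0.39; 7 of 20 is no larger a share than the 41.5% of all features, whose median was -0.17. Of the 14 falls in Fah-/- p53-/- mice, 9 were called under all 3 other scalings too. The light chain of class I, B2m, was called lower in both genotypes (-1.55 and -1.76), as was Nlrc5, the activator of class I genes (-1.41 and -1.97). Tap1, which shares its promoter window with Psmb9, was called lower in Fah-/- p53-/- mice, by -0.59 (SE 0.19, adjusted p = 0.00877), and gave 0.01 in Fah-/- mice. Between genotypes without NTBC, Tap1 was called lower in Fah-/- p53-/- (-1.07) and in Fah-/- p21-/- mice (-0.67), and under normexp neither call was made (adjusted p = 0.0676 and 0.349). Irf1, an interferon-induced factor, fell by 1.23 in Fah-/- p53-/- mice and gave -0.28 in Fah-/- mice.

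Of 10 markers of T, NK and B cells, 7 were called lower and 0 higher (0 unadjusted) without NTBC in Fah-/- p53-/- mice, with a median of -1.73, which was -0.49 in the deposited table. The 4 lower and 2 higher in Fah-/- mice are near the 41.5% and 29.3% of all features, and the share of all features called lower in Fah-/- p53-/- mice was 40%. Their mean log2 level was -2.41 to -1.90 at full dose and -4.77 to -3.08 without NTBC in Fah-/- p53-/- mice, -2.53 to -1.99 and -3.16 to -2.53 in Fah-/- mice, and -3.90 to -3.67 in Fah-/- p21-/- mice. Cd4 was not well above background on any array without NTBC in these 3 groups. Cd8a went the other way in Fah-/- mice, at 1.81. A probe of it was well above background there on 1 array at full dose and on 4 without NTBC. Of 10 macrophage markers, 10 and 8 were called higher and 0 lower (0 unadjusted) in Fah-/- and Fah-/- p53-/- mice, and all 9 hepatocyte markers were called lower in both, with 1 higher and 6 or 7 lower under quantile normalization. The part of these cells in the fall of the inducible subunits was not tested.

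The 6 ATPases that ring the entry of the cap gave values of both signs. Psmc6 stood at 4.64, 4.59, 4.59 and 4.68 at full dose, 5.01, 4.72, 4.75 and 4.63 at the reduced dose and 5.36, 5.42, 5.48 and 5.27 without NTBC in Fah-/- mice. The arrays without NTBC lay above all others, and the rise from full dose was 0.76 (SE 0.10, adjusted p = 2.37e-07) in Fah-/- and 0.67 (SE 0.10, adjusted p = 1.63e-06) in Fah-/- p53-/- mice, both under every alternative. Psmc2 and Psmc3 rose without NTBC in Fah-/- p53-/- mice, by 0.71 and 0.50, and gave 0.20 and -0.01 in Fah-/- mice. Psmc3 stood at 2.19, 2.43, 2.58 and 2.49 at full dose and 2.68, 2.99, 3.09 and 2.94 without NTBC in Fah-/- p53-/- mice, without overlap. The difference between the genotypes was 0.51 (SE 0.14, adjusted p = 0.0236) for Psmc2 and 0.51 (SE 0.15, adjusted p = 0.0351) for Psmc3. Psmc4 fell by 0.57 at the reduced dose in Fah-/- mice, from 4.35, 4.28, 4.19 and 4.35 to 3.73, 3.59, 3.82 and 3.77. Of the 23 genes called there, it was the single one whose call held under all alternatives and with each array left out. Psmc1 and Psmc5 were called lower in all 4 comparisons with full dose. Psmc5 stood at 4.20, 4.14, 4.03 and 4.21 at full dose and at 3.56, 3.29, 3.51 and 3.65 at the reduced dose in Fah-/- mice, groups without overlap, a change of -0.64 (SE 0.10, adjusted p = 3.93e-05). Psmc1 stood at 4.92, 4.81, 4.76 and 4.91 at full dose and 4.27, 4.40, 4.5 and 4.43 without NTBC in Fah-/- mice. For Psmc1, normexp turned the sign in both Fah-/- p53-/- comparisons, and quantile normalization or the deposited table turned it without NTBC in both genotypes. The 2 probes of Psmc5 gave called changes of opposite sign without NTBC in Fah-/- p53-/- mice, -0.52 and 0.46.

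Among the 11 other cap subunits, Psmd14, the enzyme that takes ubiquitin off the substrate, was called higher without NTBC than at either dose in both genotypes. Its levels were 3.80, 3.70, 3.66 and 3.82 at full dose, 3.38, 3.32, 3.40 and 3.19 at the reduced dose and 4.05, 4.07, 4.10 and 3.96 without NTBC in Fah-/- mice, 3 groups without overlap. Those of Fah-/- p53-/- mice were 3.14, 3.27, 3.43 and 3.26 at full dose, 3.27, 3.16, 3.33 and 3.53 at the reduced dose and 4.03, 4.11, 4.24 and 4.15 without NTBC. Psmd14 rose from full dose by 0.30 (SE 0.09, adjusted p = 0.00487) and 0.86 (SE 0.09, adjusted p = 1.08e-08), and these calls held under every alternative. Psmd8, a cap subunit of the lid, stood at 4.01, 4.0, 3.94 and 4.03 at full dose, 3.49, 3.42, 3.61 and 3.58 at the reduced dose and 4.32, 4.18, 4.49 and 4.37 without NTBC in Fah-/- mice. It rose by 0.34 and 0.65 from full dose (the former with an adjusted p of 0.0508 under normexp) and by 0.82 and 0.88 from the reduced dose. The ubiquitin receptor Psmd4 rose by 0.52 (SE 0.10, adjusted p = 4.91e-05) in Fah-/- p53-/- mice and gave 0.09 in Fah-/- mice. Psmd1 and Psmd2, the large scaffold subunits of the base, were not called higher against full dose by the probes that stand for them. Psmd1 stood at 2.58, 2.59, 2.46 and 2.58 at full dose and 2.04, 2.10, 2.15 and 2.28 without NTBC in Fah-/- mice. It was called lower (-0.41 and -0.30), a call lost under the 3 other scalings in both genotypes and turned to 0.01 under normexp in Fah-/- p53-/- mice. Psmd2 gave -0.15 and -0.09, not called, while its other probe was called higher in both genotypes, at 0.28 and 0.55. Psmd3 stood at 6.22, 6.29, 6.13 and 5.99 at full dose and 5.53, 5.48, 5.5 and 5.32 at the reduced dose in Fah-/- p53-/- mice, a change of -0.70 (SE 0.08, adjusted p = 5.16e-07), and at -0.33 in Fah-/- mice. Without NTBC it was called lower, and quantile normalization and the deposited table called it higher in both genotypes. Psmd12 has 3 probes, and without NTBC they gave called changes of opposite sign in both genotypes (-0.22 and 0.52 in Fah-/- mice), so its direction is uncertain. Likewise the 2 probes of Psmd7, a lid subunit, opposed each other at the reduced dose in Fah-/- mice, where the probe that stands for it went from 3.27, 3.42, 3.27 and 3.26 to 2.92, 2.85, 2.99 and 2.93. Psmd13, also of the lid, fell by 0.28 at the reduced dose in Fah-/- mice, from 1.19, 1.19, 1.24 and 1.21 to 0.88, 0.85, 0.94 and 1.06, and under normexp the call was lost (adjusted p = 0.226).

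**Figure D4:**
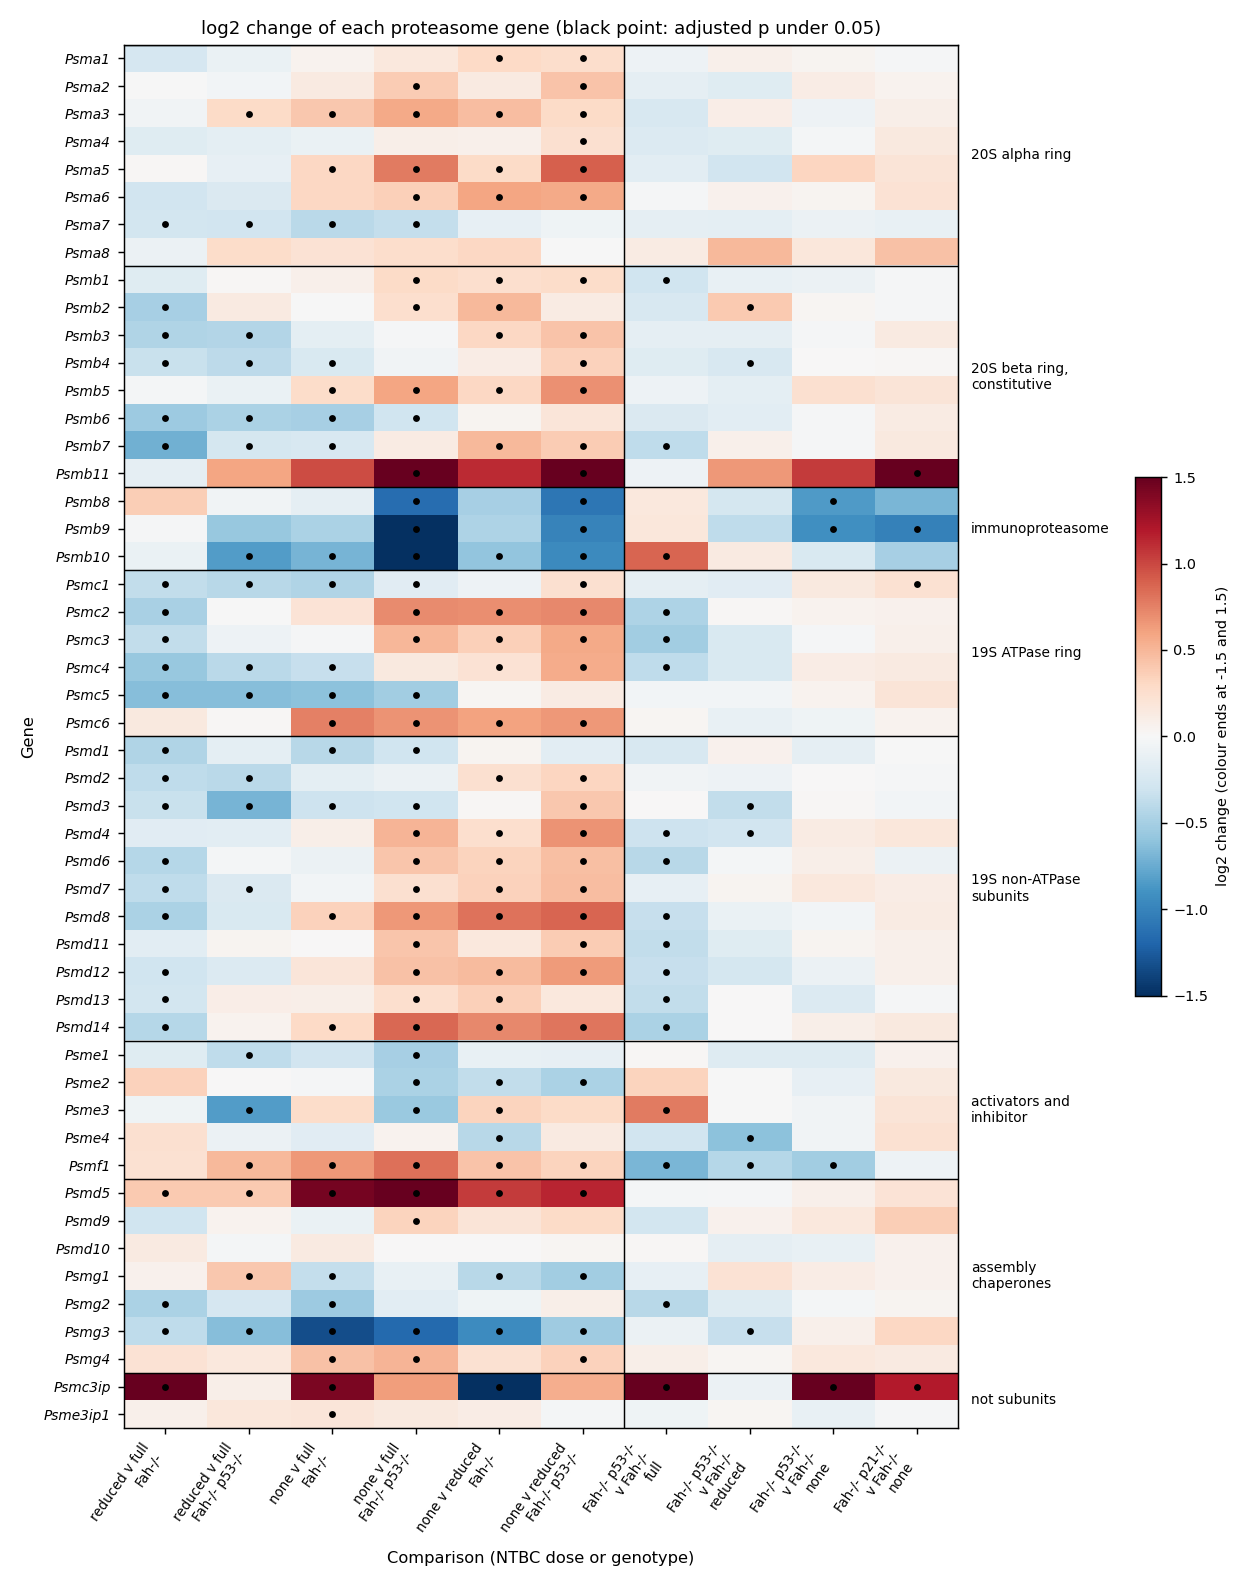
Log2 change of each of the 50 genes (rows, grouped by class) in 6 dose comparisons and 4 comparisons between genotypes (columns), as colour from -1.5 (blue) to 1.5 (red); a black point marks an adjusted p under 0.05. Psmd5 is red and Psmg3 blue in both genotypes without NTBC, and the immunoproteasome genes are blue with a point in Fah-/- p53-/- mice without NTBC. Psmb11 passed the filter only through the groups without NTBC, so a point on it is not read as a test.

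The activators and the inhibitor differed from one another. Psmf1 binds the core and inhibits it in the test tube. It stood at 0.81, 0.87, 1.10 and 0.98 at full dose and 1.31, 1.73, 1.89 and 1.44 without NTBC in Fah-/- mice and at -0.23, 0.39, 0.47 and 0.36 and 1.06, 1.01, 1.22 and 1.01 in Fah-/- p53-/- mice. The rise was 0.65 (SE 0.14, adjusted p = 0.00024) and 0.83 (SE 0.14, adjusted p = 1.48e-05), with no overlap in either, and the Fah-/- p53-/- arrays had less Psmf1 than the Fah-/- arrays at every dose. That difference was -0.69 at full dose, -0.43 at the reduced dose and -0.52 without NTBC, with adjusted p-values of 0.00157, 0.038 and 0.0163, and the call at the reduced dose was lost under the 3 other scalings. Without NTBC it also differed from Fah-/- p21-/- mice by -0.44, a call that normexp lost (adjusted p = 0.0791). These values are of the probe that stands for Psmf1. Of its 3 probes 1 was called for the rise without NTBC in each genotype. They ranged from -0.19 to 0.65 in Fah-/- and from 0.18 to 0.83 in Fah-/- p53-/- mice. The genotype difference was called by 1 probe at full dose and without NTBC and by 2 at the reduced dose. Against Fah-/- p21-/- mice the range was -0.44 to 0.23. The 3 probes gave called changes of opposite sign for no against reduced NTBC in Fah-/- mice.

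Psme3, a nuclear activator of the core, was set apart by its full-dose values in Fah-/- p53-/- mice. It stood at 1.71, 1.12, 1.36 and 1.90 there and at 0.73, 0.65, 0.70 and 0.90 in Fah-/- mice, a difference of 0.78 (SE 0.14, adjusted p = 0.000572) (adjusted p = 0.0767 under normexp). At the reduced dose it stood at 0.97, 0.74, 0.41 and 0.59 in Fah-/- p53-/- and at 0.70, 0.36, 0.72 and 0.96 in Fah-/- mice, and without NTBC at 0.99, 0.87, 1.09 and 0.92 and 0.93, 0.92, 1.19 and 1.04. The genotypes overlapped at both of these doses, and neither difference was called. The responses differed, by -0.78 (SE 0.20, adjusted p = 0.0153) at the reduced dose and by -0.83 (SE 0.20, adjusted p = 0.0103) without NTBC; both calls were lost under normexp (adjusted p = 0.352 and 0.342). The interferon-induced pair Psme1 and Psme2 were called lower without NTBC in Fah-/- p53-/- mice (-0.50 and -0.48), but quantile normalization and the deposited table turned the sign of both. Psme1 stood at 5.57, 5.51, 5.53 and 5.51 at full dose and 4.74, 5.18, 5.19 and 5.0 without NTBC, and Psme2 at 6.43, 6.23, 6.49 and 6.55 and 5.62, 6.10, 6.12 and 5.95. The values in Fah-/- mice were -0.29 and -0.02, not called. The 3 probes of Psme4, an activator known from testis and DNA repair, opposed each other without NTBC in both genotypes, so no direction is given. The probe that stands for it was at 5.03, 4.91, 4.83 and 4.94 at full dose and 4.53, 4.84, 5.11 and 4.53 without NTBC in Fah-/- mice.

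Of the 43 constitutive genes, 2 assembly chaperones had the largest changes without NTBC in both genotypes, Psmd5 upward and Psmg3 downward. Psmd5, which escorts ATPases into the base of the cap and is not part of the finished particle, stood at 1.67, 1.40, 1.88 and 1.88 at full dose, 2.31, 1.86, 2.18 and 2.04 at the reduced dose and 2.86, 3.25, 3.6 and 2.87 without NTBC in Fah-/- mice. In Fah-/- p53-/- mice the values at these doses were 1.59, 1.65, 1.74 and 1.76, then 2.15, 1.90, 2.01 and 2.24, then 3.12, 3.19, 3.30 and 3.25, and in Fah-/- p21-/- mice without NTBC 3.02, 3.53, 3.40 and 3.43. In Fah-/- and in Fah-/- p53-/- mice the arrays without NTBC lay above all others of the genotype. From full dose Psmd5 rose by 0.39 (SE 0.15, adjusted p = 0.0385) and 0.39 (SE 0.15, adjusted p = 0.0366) at the reduced dose and by 1.44 (SE 0.15, adjusted p = 8.22e-09) and 1.53 (SE 0.15, adjusted p = 2.65e-09) without NTBC, and it was the single gene of the 43 called higher in all 4 comparisons with full dose. The 2 calls without NTBC held under every alternative.

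Psmg3, a chaperone of the alpha ring, took the opposite course. It stood at 3.12, 3.22, 3.11 and 3.23 at full dose, 2.62, 2.82, 2.89 and 2.81 at the reduced dose and 1.86, 1.58, 2.01 and 1.89 without NTBC in Fah-/- mice, 3 groups without overlap, and at 3.16, 3.13, 3.07 and 2.96, then 2.61, 2.47, 2.42 and 2.28, then 1.65, 2.05, 2.06 and 1.90 at these doses in Fah-/- p53-/- mice. Its changes were -0.39 and -0.64 at the reduced dose, of which normexp kept neither call, and -1.33 and -1.17 without NTBC, with adjusted p-values of 9.16e-11 and 7.42e-10 for the last pair, which held under every alternative. Its partner Psmg4 rose without NTBC by 0.44 and 0.51, also under every alternative. The other pair of this ring's chaperones is Psmg1 and Psmg2. Psmg2 stood at 2.41, 2.38, 2.29 and 2.24 at full dose and 1.59, 1.75, 1.88 and 1.91 without NTBC in Fah-/- mice, groups without overlap. It fell by 0.55 in Fah-/- mice under every alternative and gave -0.16 in Fah-/- p53-/- mice. Of the 2 probes of Psmg2, 1 was called lower in Fah-/- mice, with a range of -0.55 to -0.16. In Fah-/- p53-/- mice neither probe was called, and their signs differed (-0.164 and 0.105). Psmg1 stood at 2.31, 2.36, 2.59 and 2.61 at the reduced dose and 1.77, 2.09, 2.03 and 1.87 without NTBC in Fah-/- p53-/- mice. It was called lower without than with reduced NTBC (-0.42 in Fah-/- and -0.53 in Fah-/- p53-/- mice), the first not under normexp (adjusted p = 0.0747). Psmd9, a chaperone of the cap, stood at 1.41, 1.68, 1.57 and 1.71 at full dose and 2.43, 1.62, 1.89 and 1.76 without NTBC in Fah-/- p53-/- mice, a rise of 0.33 (SE 0.13, adjusted p = 0.0238). The groups overlapped, and the highest value, 2.43, was that of replicate 1, the far array. Psmd10, a chaperone also known as an oncoprotein of liver, gave differences between -0.03 and 0.14 from full dose, none of which was called.

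**Figure D5:**
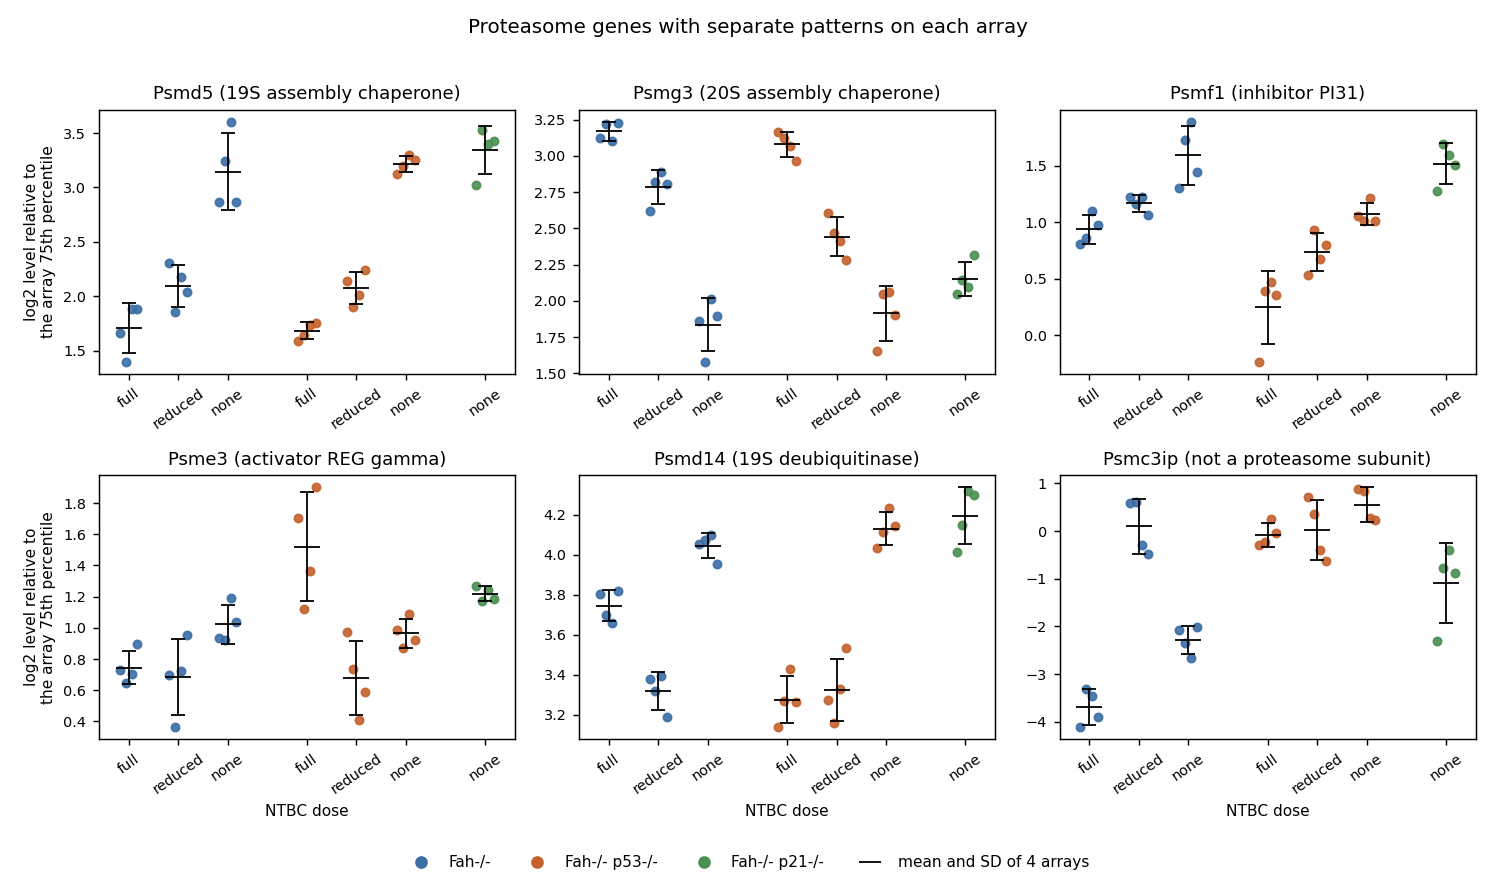
Log2 level relative to the array's 75th percentile on each array (points) of Psmd5, Psmg3, Psmf1, Psme3, Psmd14 and Psmc3ip, by group, with the mean and SD of 4 arrays. Psmd5 is highest and Psmg3 lowest without NTBC in Fah-/- and in Fah-/- p53-/- mice. Psmf1 lies below the Fah-/- mean in Fah-/- p53-/- mice at each dose, and Psme3 is highest in Fah-/- p53-/- mice at full dose.

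At full dose part of the cap was lower in Fah-/- p53-/- mice under all 4 scalings. Of the 43 genes, 1 (Psme3) was called higher and 14 lower there than in Fah-/- mice, beside 6.31% and 7.64% of all features, with a median of -0.18, and the other scalings gave 0 and 22 (1 higher unadjusted), 2 and 9 and 2 and 9. Of all features, normexp, quantile normalization and the deposited table called 1960, 2693 and 2460, with 22.1%, 45.6% and 44.6% of them higher. Without replicate 1 of Fah-/- p53-/- 8 of the 43 genes were called lower. Of the 14, 10 were cap subunits. Psmc2 stood at 4.64, 4.61, 4.64 and 4.61 in Fah-/- and 3.93, 4.15, 4.34 and 4.24 in Fah-/- p53-/- mice, a difference of -0.46 (SE 0.10, adjusted p = 0.00285). The difference was -0.47 for Psmd14, -0.52 for Psmc3 and -0.37 for Psmd11, and like Psmc4, Psmd13 and Psmf1 these calls held under every alternative. At full and at reduced dose each genotype was on a slide of its own, so slide and genotype cannot be told apart in the comparisons of genotypes at these doses, and the differences in response draw on the same slides.

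At the other doses fewer genes differed between genotypes. At the reduced dose 1 was called higher (Psmb2) and 6 lower in Fah-/- p53-/- mice, beside 9.83% and 5.78% of all features, and 0 and 0 under normexp (1 and 2 unadjusted). Without NTBC 0 were called higher (4 unadjusted) and 1 lower (Psmf1), beside 7.66% and 6.59%. Fah-/- p21-/- against Fah-/- mice without NTBC gave 1 higher (Psmc1, by 0.23) and 0 lower (0 unadjusted), beside 3.94% and 3.59%, and Fah-/- p53-/- against Fah-/- p21-/- mice 0 higher (0 unadjusted) and 1 lower, beside 5.06% and 5.97%. These last comparisons share groups.

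The test of the difference in response between genotypes called 4 of the 43 genes higher and 2 lower for reduced NTBC, beside 6.74% and 3.62% of all features, and 7 higher and 1 lower for no NTBC, beside 4.91% and 4.22%. All 7 were cap subunits: Psmc2, Psmc3, Psmc4, Psmd4, Psmd6, Psmd11 and Psmd14. For Psmd14 the response to no NTBC was larger in Fah-/- p53-/- mice by 0.56 (SE 0.13, adjusted p = 0.00677), and for Psmd6 by 0.51 (SE 0.16, adjusted p = 0.0487), where the response was 0.42 in Fah-/- p53-/- and -0.09 in Fah-/- mice. Without replicate 1 of Fah-/- on full NTBC 3 of the 43 were called higher, and the full-dose values of both genotypes enter this difference. Under normexp 0 of the 43 were called in either direction (9 higher and 1 lower unadjusted for no NTBC, and 19 and 0 for reduced NTBC), and quantile normalization and the deposited table each called 5 higher and 1 lower for no NTBC.

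Among the genes outside the particle, Psmc3ip stood out. It encodes a partner of the recombinases of meiosis and homologous repair, and its symbol alone brought it in. It stood at -4.11, -3.31, -3.45 and -3.90 at full dose, 0.59, 0.61, -0.29 and -0.49 at the reduced dose and -2.08, -2.34, -2.67 and -2.02 without NTBC in Fah-/- mice, groups without overlap. In Fah-/- p53-/- mice the values at these doses were -0.30, -0.23, 0.26 and -0.05, then 0.71, 0.37, -0.39 and -0.63, then 0.89, 0.84, 0.27 and 0.22, and in Fah-/- p21-/- mice -2.30, -0.77, -0.40 and -0.87. It rose by 3.80 (SE 0.35, adjusted p = 3.05e-08) in Fah-/- mice at the reduced dose and by 1.41 (SE 0.35, adjusted p = 0.000962) without NTBC, where normexp gave 0.07 (adjusted p = 0.827). It was well above background on 2 of the 4 full-dose Fah-/- arrays, so its differences from that group rest in part on dim signals, and its 2 probes gave the same directions. In Fah-/- p53-/- as against Fah-/- mice it was higher by 3.61 at full dose and by 2.83 without NTBC, and the response to the reduced dose differed by -3.70 (SE 0.49, adjusted p = 5.5e-05).

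Psmb11, the thymus-specific subunit, was well above background on 11 of the 28 arrays: on 0 at full or reduced dose, on 3 Fah-/- arrays without NTBC, and on all 4 in Fah-/- p53-/- and Fah-/- p21-/- mice. Its log2 levels were -6.53, -6.51, -6.83 and -7.09 at full dose and -2.92, -5.27, -5.01 and -5.31 without NTBC in Fah-/- p53-/- mice. The gene passed the filter only through the groups without NTBC, so no fold and no test is given for a rise there. In Fah-/- p53-/- mice the values without NTBC include replicate 1, the far array, at -2.92, and the difference had the opposite sign under normexp. In Fah-/- mice replicate 2 without NTBC (-7.60) was itself not well above background. Psma8, the testis-specific alpha subunit, was well above background on all arrays, with levels between -2.42 and 0.13, and passed no test in the 13 comparisons. By the probe that stands for it, Psme3ip1, an interactor of Psme3, was called in 1 of them. It went from 1.39, 1.40, 1.5 and 1.55 at full dose to 1.53, 1.61, 1.78 and 1.66 without NTBC in Fah-/- mice, a rise of 0.18 (SE 0.07, adjusted p = 0.0292). Of its 3 probes 2 were called higher there, and the range was -0.54 to 0.21. In Fah-/- p53-/- mice without NTBC, 1 probe was called lower against full dose (lowest -1.24) and 2 against the reduced dose (lowest -1.51). Its direction is therefore uncertain.

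Other genes of the pathway, 30 of 32 listed with a tested probe, held calls of both signs against full dose, in shares near those of all features but for the rises in Fah-/- p53-/- mice. Without NTBC 9 were called higher and 12 lower in Fah-/- mice, beside 29.3% and 41.5% of all features, and in Fah-/- p53-/- mice 13 and 12, beside 29.6% and 40%. Under all 3 other scalings as well, 9 and 13 of the rises and 4 and 1 of the falls were called. Ubqln2, a shuttle that carries tagged proteins to the cap, rose by 2.60 (SE 0.14, adjusted p = 2.18e-13) and 2.35 (SE 0.14, adjusted p = 9e-13), and its relative Ubqln1 by 1.22 and 1.43. Zfand2a, an arsenite-inducible factor of the proteasome, rose by 2.08 and 2.12. Nfe2l2, the oxidant-responsive factor, rose by 1.22 and 1.12, and Nfe2l1 was called lower (-0.43 and -0.34), with -0.02 and 0.07 under quantile normalization. Pomp, which helps the core to assemble, was called lower (-0.60 and -0.80), as was Adrm1, a ubiquitin receptor of the cap (-0.53 and -0.59). Under quantile normalization these were 0.31 and 0.10, and -0.21 and -0.33.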

How the data were processed

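RNA of 28 mouse livers was hybridised to 1-colour Agilent arrays, 1 sample an array. The deposited scanner files give a processed intensity per spot, background-subtracted and detrended with Feature Extraction 10.7.3.1 per the file headers (10.5 per the submitters' processing notes), with no scaling between arrays. The deposited value table holds normalized log2 intensities, with array medians between 6.89 and 6.91. These medians alone do not show by which method they were normalized. Outlier and control spots (1639) were left out, spots of a probe averaged, and the log2 of each array's 75th percentile subtracted. Of 41174 probes, 27508 were kept, each well above background on every array of some group, and the brightest stood for its gene. RefSeq named 28462 probes; 12712 kept an accession only.

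A mean per group was fitted with limma 3.58.1 in R 4.3.3, with 21 residual degrees of freedom, and p-values were adjusted by Benjamini-Hochberg over 20302 features in each of 13 comparisons. The fit was tested on simulated data. Members and gene lists were chosen with earlier results of these data known. Values per array were given for the cutting subunits and their inducible counterparts, for Psme1 to Psme4, for the called genes of each class with the largest and smallest changes and for up to 3 genes per genotype comparison; other genes named were picked after their values were seen. The alternatives were normexp on the median intensities (offset 50), quantile normalization, the deposited table, other probe filters, the mean of a gene's probes, smaller fits, slide and replicate blocks, male arrays, leaving out far arrays or each array in turn, and, added after seeing the data, median centring. The number of arrays limits the precision.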

Additional observations from a re-analysis of the deposited data

Results flagged for a closer look

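In 16 of 252 gene and group combinations (36 genes, 7 groups) 1 array lay far from the other 3, where chance alone gives about 1 in 20. Replicate 1 of Fah-/- p53-/- without NTBC had a Psmb10 level of 3.33, against 4.67 to 4.82 on the others, and a Psmb11 level of -2.92, against -5.31 to -5.01. Replicate 1 of Fah-/- p53-/- on full NTBC had the lowest Psmf1 (-0.23) and Psmb2 (1.25), and replicate 4 the highest Psmb9 (3.70). In Fah-/- mice on reduced NTBC replicate 4 had the lowest Psmb10 (5.04) and Psmb4 (6.43), and replicate 1 the highest Psmb9 (3.24). In Fah-/- mice on full NTBC Psmd1 was lowest on replicate 3 (2.46), Psmd7 highest on replicate 2 (3.42) and Psmg1 highest on replicate 1 (2.21, the others at 2.17). In Fah-/- mice without NTBC Psmb11 was lowest on replicate 2 (-7.60, not well above background) and Psmd3 lowest on replicate 1 (5.75). In Fah-/- p21-/- mice Psmg2 was lowest on replicate 1 (1.41) and Psmd7 lowest on replicate 3 (3.31). Psmd13 was lowest on replicate 3 of Fah-/- p53-/- on reduced NTBC (0.74).

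The response to NTBC differed between the genotypes in 16 tests (limma, adjusted over all features). Each difference is the response in Fah-/- p53-/- minus that in Fah-/- mice. For reduced against full NTBC it was 0.63 for Psmb2, 0.46 for Psmb7, 0.48 for Psmc2, 0.48 for Psmd14, -0.37 for Psmd3, -0.78 for Psme3 and -3.70 for Psmc3ip. For no against full NTBC it was 0.51 for Psmc2, 0.51 for Psmc3, 0.50 for Psmc4, 0.41 for Psmd11, 0.56 for Psmd14, 0.43 for Psmd4, 0.51 for Psmd6, -0.83 for Psme3 and -1.10 for Psmb10. The adjusted p-values lay between 5.5e-05 (Psmc3ip) and 0.0487 (Psmd6). Of these calls the one for Psmc3ip held under every alternative, and normexp lost each of the others.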

How the results depend on the processing

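Counts are of the 43 constitutive genes called higher and lower. Under normexp, reduced against full NTBC gave 0 and 1 in Fah-/- and 17 and 1 in Fah-/- p53-/- mice, no against full NTBC 2 and 1 lower in the same order, and no against reduced NTBC 13 and 8 higher and, in Fah-/- mice, 1 lower. The p53 comparison gave 0 and 22 at full and 0 and 0 at reduced dose, p21 loss 0 higher, p53 against p21 loss 0 lower, and both genotype differences in response 0 and 0. Quantile normalization and the deposited table gave, in this order, 5 and 11 or 6 and 9 (reduced, Fah-/-), 10 and 4 or 11 and 5 (reduced, Fah-/- p53-/-), each 32 and 2 or 35 and 2 (none against full), 2 lower (none against reduced, Fah-/-), 2 and 9 (p53, full), 1 lower (p53, reduced; 2 higher in the deposited table), 3 higher (p53, none) and 1 lower (difference in response, reduced); p21 loss gave 0 with the deposited values. Fitted to the compared groups alone, 2 were higher in Fah-/- p53-/- mice on reduced NTBC, 8 lower for p53 at full dose, 0 and 3 at reduced dose, 0 lower without NTBC, 0 for p21 loss and for p53 against p21, and the differences in response gave 3 higher (none) and 1 lower (reduced). The mean of a gene's probes gave 4 higher (reduced, Fah-/-), 9 lower (reduced, Fah-/- p53-/-), and 0 lower for p53 loss and for p53 against p21 without NTBC. With no filter on dim probes 0 were higher (reduced, Fah-/-), 0 for p21 loss and p53 against p21, and the differences in response gave 2 and 1 (reduced) and 3 higher (none). Among arrays without NTBC, slide as a fixed block and the slide shared by both groups gave 0 for each genotype comparison, male arrays alone 0 for p21 loss, and leaving out the 3 far arrays 1 and 2 for p53 loss and 0 for the others.

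Leaving out 1 array gave 0 to 3 higher and 20 to 23 lower (reduced, Fah-/-), 1 to 4 and 12 to 15 (reduced, Fah-/- p53-/-), 7 to 9 and 9 to 14 (none against full, Fah-/-), 19 to 22 and 9 to 10 (the same, Fah-/- p53-/-), 16 to 26 and 3 to 5 (none against reduced, Fah-/-) and 24 to 28 and 3 to 4 (the same, Fah-/- p53-/-). Between genotypes it gave 1 and 8 to 13 (p53, full), 0 to 1 and 2 to 5 (p53, reduced), 0 and 0 to 2 (p53, none), 0 to 3 and 0 (p21), 0 and 0 to 1 (p53 against p21), 2 to 5 and 1 to 2 (difference, reduced) and 3 to 7 and 1 (difference, none).

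Calls that turned sign are given with the turned log2 difference. For Fah-/- p53-/- mice on reduced NTBC, normexp gave 0.36 for Psma7, 0.24 for Psmb3, 0.19 for Psmb4, 0.21 for Psmb6, 0.45 for Psmb7, 0.27 for Psmc1, 0.068 for Psmc4, 0.15 for Psmc5, 0.20 for Psmd2, 0.19 for Psmd7 and 0.15 for Psme1; quantile normalization gave 0.064 for Psma7, and the deposited table gave 0.11 for Psma7, 0.015 for Psmb3, 0.007 for Psmb4 and 0.062 for Psmb7. For Fah-/- mice without as against full NTBC, quantile normalization and the deposited table gave 0.35 and 0.33 for Psma7, 0.64 and 0.62 for Psmb4, 0.23 and 0.21 for Psmb6, 0.25 and 0.29 for Psmb7 (0.005 under normexp), 0.10 and 0.16 for Psmc1, 0.13 and 0.092 for Psmc4, and 0.46 and 0.46 for Psmd3; the mean of its probes gave -0.051 for Psme3ip1. For Fah-/- p53-/- mice, normexp, quantile normalization and the deposited table gave 0.12, 0.37 and 0.43 for Psma7 and 0.14, 0.41 and 0.41 for Psmb6. In the same order they gave 0.27, 0.39 and 0.38 for Psmc1 and 0.20, 0.48 and 0.54 for Psmd3. Normexp gave 0.014 for Psmd1, and the last 2 scalings gave 0.13 and 0.17 for Psme1 and 0.32 and 0.38 for Psme2. Psmb11, for which no test is given, was at -0.54 under normexp. For no against reduced NTBC, Psme2 gave 0.23 and 0.39 in Fah-/- mice and 0.11 in Fah-/- p53-/- mice (deposited table), Psmf1 -0.11 as the mean of its probes, and Psmc1 -0.003 under normexp in Fah-/- p53-/- mice. The difference in response of Psmd3 to reduced NTBC was 0.15 under normexp. The cause of these changes was not tested.

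Same-numbered arrays did not deviate together (correlations -0.226 to 0.356). With the number as a replicate block, no against full NTBC in Fah-/- mice gave 9 higher and 13 lower, and every count stayed within 1.5 times that without it. The normexp alternative used the median spot and background intensities. Signal over background limits Psmb11 and, at full dose, Psmc3ip.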
